A study of Homo sapiens with 2 samples.

Results

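The cytochromes P450 were described in Huh-7 cells, a human hepatoma line, with and without interferon-alpha. Members were all genes whose symbol on the array's annotation begins with CYP and a number, pseudogenes left out, read only from probe sets assigned to that gene alone. The rule gave 49 genes of 19775 on the array with such a probe set. Of these 47 encode a P450, with 92 probe sets, and 2 are antisense RNA genes that carry a P450 gene's name. Counts below are over the 47, and the 2 antisense genes are given apart. A further 5 genes with a matching symbol (CYP2D7, CYP3A7, CYP4A22, CYP21A2 and CYP51A1) had only probe sets shared with another gene and have no value here.

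One culture was given recombinant human IFN-alpha 2b, at 100 U/mL, and was exposed for 6 hours after a preceding incubation, while the untreated flask had only its medium exchanged. RNA of each was hybridised to 1 Affymetrix array. With 1 array per condition there is no replicate error and no test, and every ratio describes these 2 cultures. Both share the same tumour line, so nothing here compares with normal hepatocytes.

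P450s are haem-containing monooxygenases that insert an oxygen atom into their substrate, with electrons passed on by a reductase partner in the endoplasmic reticulum or by ferredoxin in mitochondria. Some families act mostly on drugs and other foreign compounds, others on fatty acids, sterols, steroid hormones or vitamins. Adult liver is their main site for drug metabolism and for bile acid synthesis, and hepatoma lines are known to keep only part of that set. Interferon treatment is known from patients and animals to lower hepatic drug metabolism by P450s, so the question was how their transcripts compared after the exposure used here.

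A floor was set at the median of all intensities of both arrays, 48.46, because no detection calls were used here. Values below the floor were raised to it before the log2 ratio of interferon over untreated was taken. Of the 47 P450 genes 22 (46.8%) exceeded the floor on 1 array or both, whereas 67.1% of all genes did. That gap depended on the floor: with it at percentile 40, 34 of the 47 and 14962 of all 19775 genes exceeded it. The 22 came from 17 of the 36 subfamilies measured. The 3 subfamilies with more than 1 member among them were 1A, 4F and 11B. No member was 2-fold different: 0 of 22 were at least 2-fold higher (background 0.43% of 13269 genes) and 0 were at least 2-fold lower (background 0%). At 1.5-fold the counts were also 0 higher (background 0.754%) and 0 lower (background 0.0829%). The median log2 ratio of the 22 was 0.05, against 0.03 for all genes above the floor. The ratios ran from -0.21 for CYP4F2 to 0.36 for CYP1A1.

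For comparison, 6 interferon-stimulated genes chosen to check the treatment were all more than 2-fold higher, with a median log2 ratio of 4.20. Intensities of the ubiquitin-like modifier gene ISG15 were 351 untreated and 8332 with interferon. Of the hepatocyte markers, all 5 with a value (ALB, APOA1, TTR, SERPINA1 and APOB) had untreated intensities between 2999.9 and 12212, with log2 ratios from 0.10 to 0.29. The leukocyte markers PTPRC and CD3E, the endothelial marker CDH5 and the stellate marker ACTA2 did not reach the floor. LYZ, at 2064 and 2271, and CD14, PECAM1, VWF, COL1A1 and PDGFRB were above it. The part of these markers in the P450 values was not tested.

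The stretches before the start sites of CYP1A1 and CYP2J2, the members with the highest ratios, and of ISG15 are shown so that the letters searched can be seen in place. They are the 250 bases before the start site in RefSeq on GRCh38.p14, at chr15:74725529-74725778 (minus strand), chr1:59926774-59927023 (minus strand) and chr1:1013247-1013496 (plus strand). Capitals mark GCGTG, the core to which the aryl hydrocarbon receptor binds, in the P450 genes. In ISG15 they mark the core of the interferon-stimulated response element, which is GAAA, any 2 bases and GAAA again, in 2 overlapping copies. The ISG15 stretch also holds GCGTG, on its other strand, which is left in lower case.
CYP1A1: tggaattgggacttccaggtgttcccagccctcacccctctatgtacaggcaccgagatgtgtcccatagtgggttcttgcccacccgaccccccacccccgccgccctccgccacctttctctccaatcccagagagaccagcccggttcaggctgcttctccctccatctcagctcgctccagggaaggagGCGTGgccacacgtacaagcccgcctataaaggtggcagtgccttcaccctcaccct
CYP2J2: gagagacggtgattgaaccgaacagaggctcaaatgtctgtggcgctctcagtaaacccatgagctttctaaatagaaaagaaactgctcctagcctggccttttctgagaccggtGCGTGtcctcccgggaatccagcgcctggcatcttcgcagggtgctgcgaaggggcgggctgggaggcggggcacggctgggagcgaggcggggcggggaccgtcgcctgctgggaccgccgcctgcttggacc
ISG15: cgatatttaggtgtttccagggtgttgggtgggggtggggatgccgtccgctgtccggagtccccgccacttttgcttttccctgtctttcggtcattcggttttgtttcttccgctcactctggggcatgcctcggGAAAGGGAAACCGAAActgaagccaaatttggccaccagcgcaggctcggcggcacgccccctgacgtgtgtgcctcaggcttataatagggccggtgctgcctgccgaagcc

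Promoter sequences were matched for 34 of the 47 P450 genes, and both motifs were searched on both strands. Before the start site, the interferon response core occurred in 0 of the 34 P450 promoters, in 3.07% of all 27305 promoters and in 26 of 48 promoters of genes at least 2-fold higher with interferon. With 50 bases after the start included, it occurred in 2 of the 34, those of CYP26A1 and CYP4V2, and in 3.65% of all. CYP26A1 did not reach the floor and CYP4V2 had a log2 ratio of -0.03. GCGTG occurred before the start in 7 of the 34 and in 31.9% of all promoters, so its presence in the stretches of CYP1A1 and CYP2J2 is shared with many genes. A match is a match of letters and not a measured binding site.

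**Figure D1:**
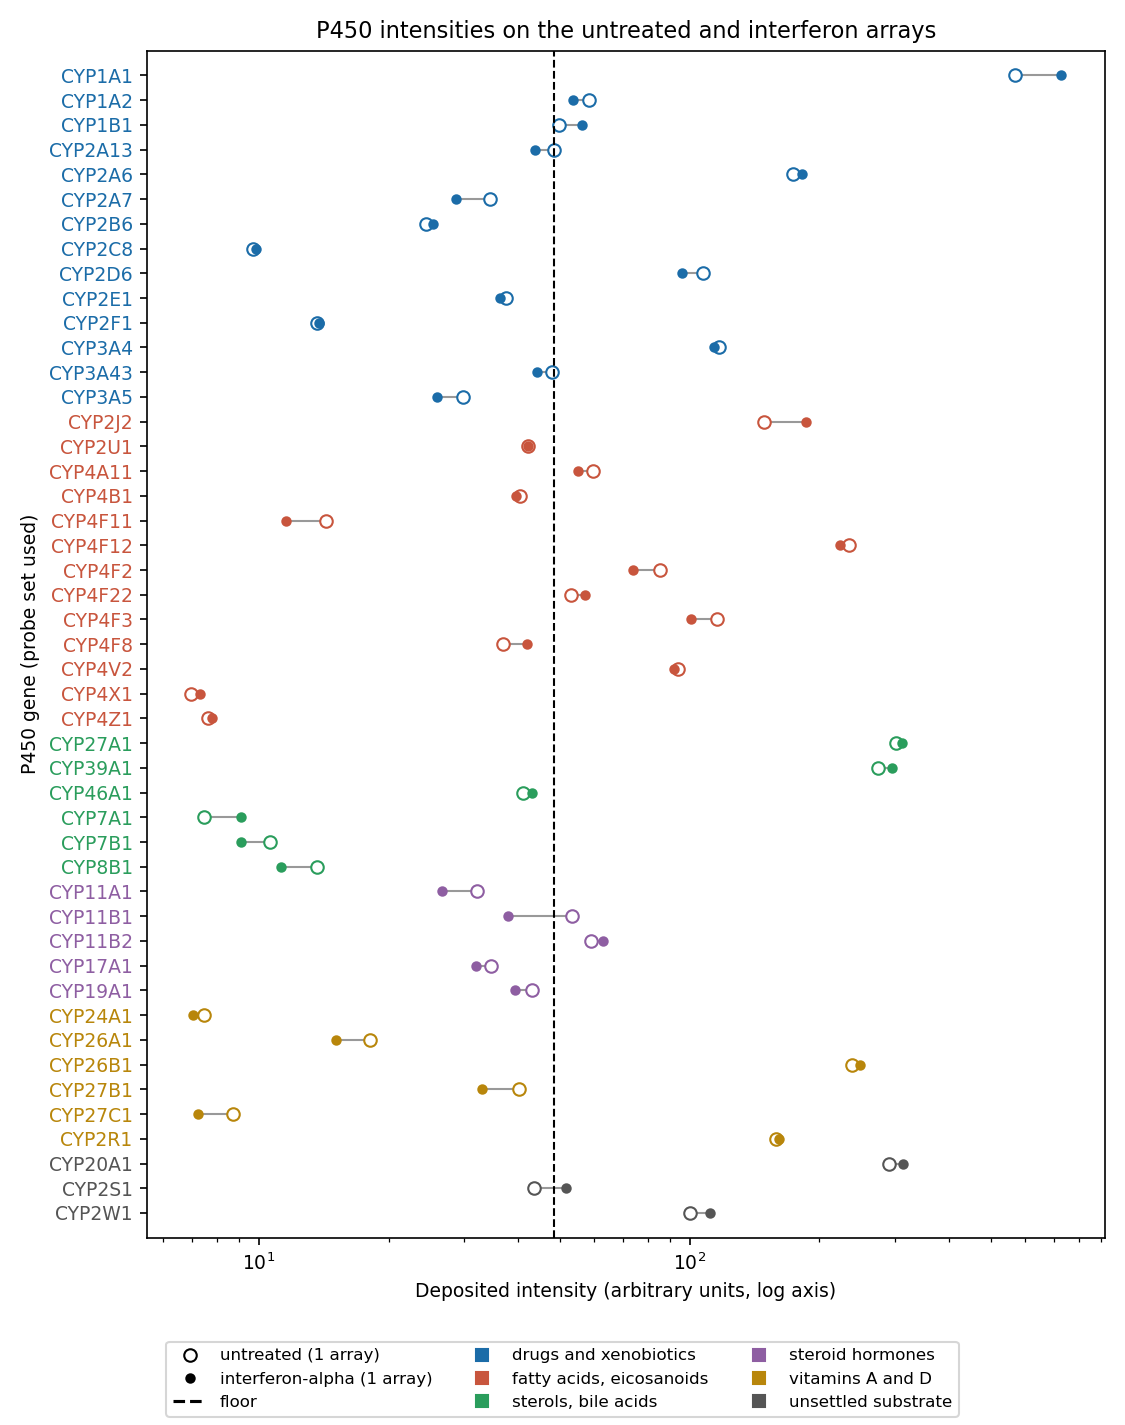
Deposited intensity (log axis, arbitrary units) of the probe set used for each of the 47 P450 genes, open circles for the untreated array and filled circles for the interferon array, coloured by the kind of substrate; the dashed line is the floor of 48.46. In 25 genes both circles lie left of the floor, and probe sets differ in their response, so positions of different genes along the axis do not rank their transcripts.

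Among the 14 P450 genes of drug and xenobiotic metabolism, 6 were above the floor, and all 3 genes of family 1 were among them. CYP1A1, which oxidises polycyclic aromatic hydrocarbons and is a classic target of the aryl hydrocarbon receptor, had intensities of 568 untreated and 729 with interferon. Its ratio of 1.28-fold (log2 0.36) was the highest of the family. CYP1A2, which metabolises caffeine, had 58.4 and 53.7 (log2 -0.12), and its other probe set gave 44.4 on both arrays. CYP1B1, which oxidises oestrogens, mostly outside the liver, had 49.8 and 56.3 (log2 0.18) on the only one of its 4 probe sets above the floor. CYP1A1 was thus far above the floor on both arrays, whereas both relatives lay close to it. The aryl hydrocarbon receptor gene AHR had 647 and 745 (log2 0.20).

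In family 2 the xenobiotic enzymes above the floor were CYP2A6 and CYP2D6, and their probe sets did not run the same way. CYP2A6, which oxidises nicotine, had 174 and 182 (log2 0.07) on the probe set used. Its other 3 probe sets, all above the floor, had log2 ratios of 0.05, -0.24 and -0.40. All 4 are of types (_x_at or _f_at) that can cross-hybridise with related genes, so the value of CYP2A6 alone is uncertain. CYP2D6, which metabolises codeine and many antidepressants, had 107 and 95.8 (log2 -0.16) on one probe set and 94.5 and 103 (log2 0.13) on the other. For both genes the sign therefore depended on the probe set.

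CYP3A4, the main drug-metabolising P450 of adult liver, showed nearly equal intensities of 117 and 114 (log2 -0.03) on a probe set of the type that can read related genes. A second probe set had 62.8 and 55.4 (log2 -0.18), and the remaining 3 of its 5 probe sets did not reach the floor. Its relatives CYP3A5 and CYP3A43 did not reach the floor, and CYP3A43 lay just under it at 47.9 and 44.2. The other xenobiotic members below the floor were CYP2A7, CYP2A13, CYP2B6, CYP2C8, CYP2E1 and CYP2F1. CYP2A13 lay nearest to it, with 48.3 and 43.8. CYP2E1, which oxidises ethanol and paracetamol, had no value above 37.5 on any of its 4 probe sets, and CYP2C8, which metabolises paclitaxel, none above 9.85.

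**Figure D2:**
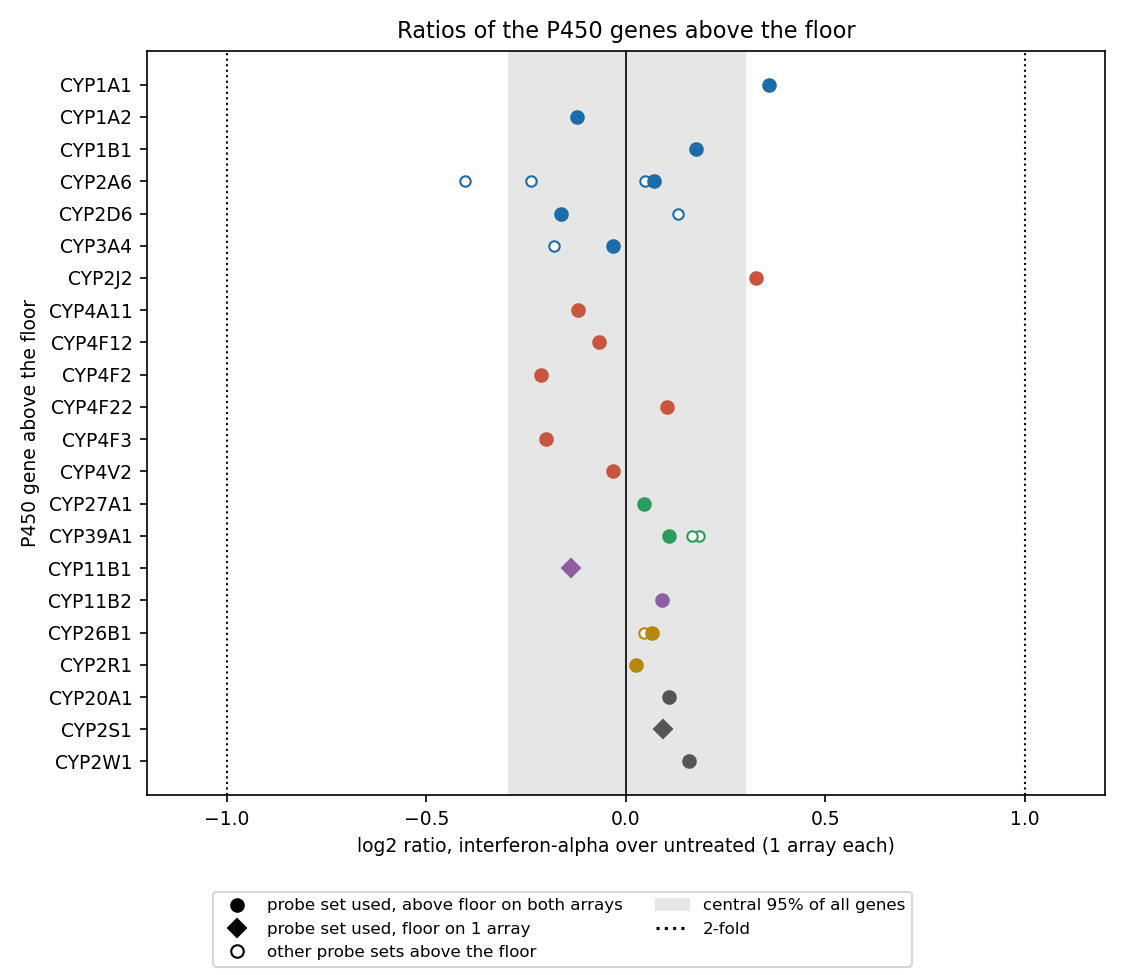
Log2 ratio of interferon over untreated for the 22 P450 genes above the floor, filled symbols for the probe set used (diamonds where 1 array was below the floor), open circles for other probe sets above the floor, and grey for the central 95% of all genes (-0.29 to 0.30). Of the probe sets used, those of CYP1A1 (0.36) and CYP2J2 (0.33) lie outside the grey band, and none reaches the dotted lines of 2-fold.

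Of 13 members that act on fatty acids and eicosanoids 7 were above the floor, with a median log2 ratio of -0.07. CYP2J2, an epoxygenase of arachidonic acid, had 149 and 187, a ratio of 1.25-fold (log2 0.33), on its only probe set. The 4F subfamily of omega-hydroxylases had 4 of 6 members above the floor. CYP4F2, which hydroxylates the side chains of vitamin K and leukotriene B4, had 85.4 and 73.7 (log2 -0.21). This was the lowest ratio of the whole family with the processing used here, but not under every alternative. CYP4F3, which inactivates leukotriene B4, had 116 and 100.6 (log2 -0.20), and CYP4F12 had 234 and 224 (log2 -0.07). CYP4F22, which serves ceramide synthesis in the skin, had 53.1 and 57.0 (log2 0.10). The 4 lay on both sides of 0, as did genes of like brightness, and all lay within the central 95% of all genes (-0.29 to 0.30). Each rests on 1 probe set, and those of CYP4F2 and CYP4F12, like those of CYP1A2, CYP1B1 and CYP11B1, are of the types that can read related genes.

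CYP4A11, a fatty acid omega-hydroxylase controlled by PPAR alpha, had 59.8 and 55.1 (log2 -0.12). The probe set of CYP4A11 is of the type that can read related genes. The gene of that receptor, PPARA, had 98.1 and 89.7 (log2 -0.13), but its 5 probe sets above the floor ran from -0.13 to 0.40, so its sign depended on the probe set. CYP4V2, mutated in Bietti crystalline dystrophy, had 94.0 and 91.9 (log2 -0.03) on the only one of its 4 probe sets above the floor. CYP2U1, CYP4B1, CYP4F8, CYP4F11, CYP4X1 and CYP4Z1 did not reach the floor, with intensities from 6.95 to 42.2. The probe set used for CYP2U1 held the same value of 42.2 on both arrays, an exact tie that 3.66% of all genes showed.

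Of the 6 sterol and bile acid enzymes 2 were above the floor, against 46.8% of the P450 genes and 67.1% of all genes. CYP27A1, the mitochondrial enzyme that hydroxylates the cholesterol side chain, had 302 and 311 (log2 0.04). CYP39A1, which acts on hydroxylated cholesterol, had 274 and 296 (log2 0.11), and its other 2 probe sets had log2 ratios of 0.18 and, from the floor upwards, 0.16. All 3 thus lay above 0. CYP7A1, the rate-limiting enzyme of bile acid synthesis, had 7.45 and 9.08, far below the floor. CYP7B1, of the alternative bile acid pathway, had 10.6 and 9.07 on the brighter of its probe sets. CYP8B1, which sets the share of cholic acid, had 13.6 and 11.3. CYP46A1, the cholesterol hydroxylase of brain, had 41.0 and 43.1. The bile acid enzymes thus lay below the floor apart from the members named first.

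The steroid hormone enzymes are known from adrenal gland, gonads and placenta, and 2 of 5 were above the floor, both barely. CYP11B1, which completes cortisol synthesis, had 53.3 untreated and 37.9, below the floor, with interferon, so it was at least 1.10-fold lower. The floor limits that value: with the floor at percentile 40 its log2 ratio was -0.49, then the lowest of the family. CYP11B2, the aldosterone synthase, had 59.2 and 63.0 (log2 0.09). CYP11A1, which starts steroid synthesis, had 32.2 and 26.6. CYP17A1 had 34.5 and 32.0, and CYP19A1, the aromatase, stayed at or under 43.1 on all 7 of its probe sets. At such intensities presence of a transcript cannot be told from background signal.

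Among the 6 enzymes of vitamins A and D, CYP26B1 and CYP2R1 were above the floor. CYP26B1, which clears retinoic acid, had 238 and 249 (log2 0.07), and its second probe set 87.0 and 89.7 (log2 0.04). CYP2R1, which makes the circulating form of vitamin D, had 158 and 161 (log2 0.03), with its 2 other probe sets below the floor. CYP26A1, CYP24A1, CYP27B1 and CYP27C1 did not reach the floor. CYP26A1, a known target of retinoic acid, had 18.1 and 15.1. All 3 members whose main substrate is unsettled were above the floor. CYP20A1 had 289.8 and 312 (log2 0.11), CYP2W1 had 99.98 and 112 (log2 0.16), and CYP2S1 had 43.6 and 51.7, which from the floor upwards is at least 1.07-fold higher.

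By brightness, 6 of the 22 members (27.3%) had at least 4 times the floor on both arrays, whereas 52.1% of all genes above the floor did. These were CYP1A1, CYP20A1, CYP26B1, CYP27A1, CYP39A1 and CYP4F12. Of the 20 members above the floor on both arrays, 12 (60%) had a ratio above 0, close to the 59.7% of all such genes. By the probe sets used, CYP1A1 and CYP2J2 were above the central 95% of all genes, 2 of 20 (background 2.5%). Below it were 0 (background 2.5%). CYP1A1 and CYP2J2 also lay above the central 95% of genes of like brightness (10 equal groups), which ended at 0.297 for CYP1A1 and at 0.298 for CYP2J2. A probe set of CYP2A6 that was not the one used, with 77.1 and 58.3 (log2 -0.40), lay below the central 95% of all genes (from -0.29). The ratio between arrays drifted with brightness over all genes, from a median log2 of -0.04 in the dimmest of the 10 groups to 0.14 in the brightest. After quantile or lowess scaling, which take out that drift, CYP1A1 had log2 ratios of 0.28 and 0.29 and CYP2J2 0.29 and 0.31. The central 95% was not computed on those scales, so whether both genes still lay outside it was not tested.

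**Figure D3:**
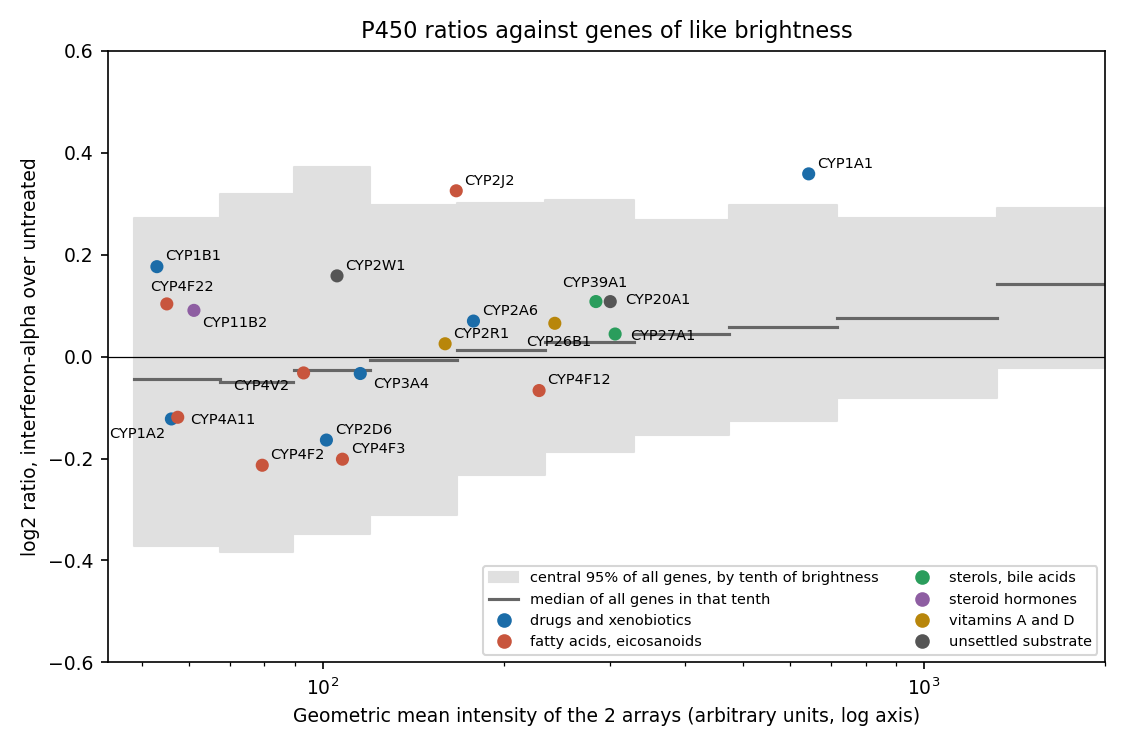
Log2 ratio of interferon over untreated against the geometric mean intensity of both arrays (log axis) for the 20 P450 genes above the floor on both, with the median (line) and central 95% (grey) of all genes in each of 10 groups of equal size by brightness. CYP1A1 and CYP2J2 lie above the grey band, and the other 18 genes lie within it.

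The sign of every P450 ratio above 0 depended on the scale between arrays. All 18 probe sets for spiked hybridisation controls read higher after interferon, by a median of 0.43 on the log2 scale. Centring on them lowered the median of all genes above the floor from 0.03 to -0.38 and put all P450 genes above the floor then in force (26) at or below -0.01. CYP1A1 then had -0.07, CYP2J2 -0.10 and CYP4F2 -0.64. The distance of the family's median from that of all genes changed little, from 0.02 to 0.04. Which scale holds was not tested.

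Among genes that serve or control the P450s none passed 1.5-fold in either direction with the floor used. Of all genes above the floor 0.754% were at least 1.5-fold higher and 0.0829% lower. In lists this short a count of 0 is near those shares. Of all genes 67.1% were above the floor. Of 6 electron donors with a value all were above the floor, with a median log2 ratio of 0.06 and 0 past 1.5-fold. POR, the reductase that supplies the microsomal P450s, had 831 and 933 (log2 0.17), CYB5A, cytochrome b5, had 886 and 914 (log2 0.04), and the mitochondrial ferredoxin FDX1 had 674 and 680 (log2 0.01). All 11 genes with a value for haem synthesis and breakdown were above the floor, with a median of -0.02 and 0 past 1.5-fold. ALAS1, the rate-limiting enzyme of haem synthesis in liver, had 1006 and 1044 (log2 0.05), and HMOX1, which degrades haem, had 284 and 261 (log2 -0.12), the lowest of them.

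Of 20 transcription factors of P450 genes with a value, 18 were above the floor (background 67.1%). The median log2 ratio of the 18 was 0.10, with a range of -0.13 to 0.22. Past 1.5-fold were 0 (background 0.754% higher and 0.0829% lower). The retinoic acid receptor gene RARB, with 53.0 untreated and 34.6 with interferon, has its value of -0.13 from the floor, and without the floor its log2 ratio was -0.61. NR0B2, the repressor SHP that restrains CYP7A1, had the highest ratio, with 502 and 583 (log2 0.22). The liver factors CEBPA and CEBPB had 4540 and 4878 (log2 0.10) and 2823 and 3261 (log2 0.21), and RXRA, the partner of many nuclear receptors, had 1137 and 1136 (log2 -0.002). NR1I3, the receptor CAR that controls CYP2B6, was below the floor at 23.9 and 25.3, as was AHRR, the repressor of the aryl hydrocarbon receptor, at 13.4 and 12.6. CYP2B6, at 24.4 and 25.3, was among the 25 of 47 members below the floor, and a link to NR1I3 was not tested.

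Outside the 47, the antisense gene CYP1B1-AS1 had 53.2 and 53.5 (log2 0.01) and CYP51A1-AS1 had 9.51 on both arrays. The 11 probe sets shared between a P450 gene and another gene name no gene here, and the 7 of them above the floor had log2 ratios from 0 to 0.31.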

How the data were processed

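Huh-7 cells were measured on 2 Affymetrix arrays, 1 untreated and 1 treated with interferon-alpha. The authors deposited linear intensities for each probe set of each array. Per the submitters' processing notes GCOS was used. For its version, background correction and scaling, the sources used here give nothing. The table held 54675 probe sets (62 controls), of which 41091 named 1 gene, 1801 several and 11721 none. Names came from the platform annotation.

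Values under the 50th percentile of both arrays were raised to it, and each gene was read from its brightest probe set (mean log2 intensity of both arrays). Every member above the floor was to be named, and the gene lists were written down with the rule. The members and lists were chosen with earlier results of these data known. Other floors, pseudocounts, scalings and probe set choices were tried. The 2-fold counting was tested on simulated data without an offset between arrays, with changes placed only in genes of at least 4 times the floor. Only 6 of the 22 members reached that on both arrays, so the simulation does not bear on the dimmer ones. Without replicates no p-value is given, and the number of arrays limits the precision. Promoters came from RefSeq (GRCh38.p14). Python 3.11.15, pandas 2.3.3 and statsmodels 0.14.6 were used.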

Additional observations from a re-analysis of the deposited data

Results flagged for a closer look

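Hybridisation controls lie outside the gene comparison, and all 18 of their probe sets read higher after interferon. Their log2 ratios ran from 0.14 to 0.56, with a median of 0.427. None of the 20 P450 genes above the floor on both arrays had a ratio above that median. The central 95% of all such genes ended at 0.297, so less than 2.5% of all genes can exceed it. The 0 is near that share and is no trait of the P450s. The part of this offset in the P450 ratios was not tested.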

How the results depend on the processing

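No member was at least 2-fold higher or lower, nor at least 1.5-fold higher, under any of the alternatives run, which were 12 planned ones and 1 added after seeing the data (with the antisense genes). The count at least 1.5-fold lower was 0 except after centring on the hybridisation controls, where it was 3 of 26 (CYP2D6, CYP4F2 and CYP4F3). How many of all genes were 1.5-fold lower under that centring was not counted, so these 3 have no background beside them. That centring moved the median log2 ratio of all genes above the floor to -0.38 and that of the family to -0.34. The medians under the other alternatives ran from -0.03 to 0.08, all less than the robust SD of all genes (0.13) from the value reported. With a floor at percentile 40, 34 of the 47 members were above it, and 14962 of all 19775 genes. The gap to all genes was then smaller than with the floor used. At percentile 60 the counts were 15 of the 47 members and 11319 of the 19775 genes. A pseudocount of 16 or of 1, which applies no floor, kept all 47 members and all 19775 genes. Leaving out the _x_at and _s_at types left 16, since CYP1A2, CYP1B1, CYP4A11, CYP4F2, CYP4F12 and CYP11B1 dropped out. CYP1A1 had the highest ratio except after quantile or lowess scaling, where CYP2J2 did, and after the control centring, where CYP2U1 did, at -0.01 and next to the floor. The lowest member also changed. It was CYP11B1 with the floor at percentile 40 and with both pseudocounts, and CYP4F3 after quantile or lowess scaling. Without the _x_at and _s_at types it was CYP2A6, at -0.24 in place of 0.07. Under the other alternatives it was CYP4F2. CYP11B1, above the floor on the untreated array only, moved from -0.14 to -0.49 with the floor at percentile 40 and to -0.36 and -0.48 with pseudocounts of 16 and 1. For the 10 members with the highest and lowest ratios among those above the floor on both arrays, 123 values under alternatives were compared. Of these, 112 moved by less than that SD. The other 11 were 10 after control centring and that of CYP2D6 with the median over its probe sets (-0.02). Many of the 112 were fixed in advance. A lower floor, a floor required on both arrays and added antisense genes cannot change these members' ratios. Nor can a choice of probe set where a member has only 1. The tally is thus no measure of stability. No paired analysis was possible because each group has 1 array.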
